A study of Mus musculus with 4 samples.

Results

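MHC class I presents peptides from inside the cell on the surface of nearly all nucleated cells, and 10 genes of this route were followed across 3 mouse leukemias and normal bone marrow. The genes were Nlrc5, H2-K1, H2-D1, B2m, Tap1, Tap2, Tapbp, Psmb8, Psmb9 and Psmb10. They were taken by name, as all probe sets annotated to exactly 1 of them, which gave 27 of 34945 such probe sets and 10 of 18193 genes. All 10 genes were measured. The RNA of each sample was read on 1 Affymetrix mouse expression array. The mixed lineage leukemia arose from hematopoietic stem or precursor cells transduced with both AF4-MLL and MLL-AF4, fusions of the histone methyltransferase MLL and the elongation factor AF4. Cells given AF4-MLL alone produced the proB ALL, an acute lymphoblastic leukemia, and the B/T BAL, a biphenotypic leukemia with B and T markers. Normal bone marrow was the comparison. The series title names C57BL6 mice. Leukemic marrow was collected when the animals were moribund, and its cells were typed by flow cytometry without sorting. The sources used here give no vector, promoter or age of the animals. Each group was 1 array, so single arrays have no replicate error, and fusion and immunophenotype cannot be told apart for the mixed lineage leukemia.

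Proteasomes cut proteins into peptides, and interferon exchanges 3 of their catalytic subunits for the immunoproteasome subunits Psmb8, Psmb9 and Psmb10. The transporter made of Tap1 and Tap2 moves the peptides into the endoplasmic reticulum, where tapasin (Tapbp) helps load them onto a heavy chain, H2-K1 or H2-D1, bound to the light chain beta-2-microglobulin (B2m). Nlrc5 is the transactivator that drives many of these genes from a shared promoter module. Loss of class I lets cells escape cytotoxic T cells and exposes them to natural killer (NK) cells.

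The values were MAS5 signals on a linear scale with a trimmed mean of 1000 on every array. A signal of 189, the median over all signals, served as the floor. To compare arrays, 51.4 (the 25th percentile of signals) was added before taking log2, and a gene was called different between 2 arrays at 2-fold or more. Between 46.3% and 57.4% of probe sets lay above the floor, the highest share on the mixed lineage array. The 3' to 5' ratio of Actb, which rises with RNA degradation, lay between 1.87 on the normal array and 4.72 on the B/T BAL array. That of Gapdh was 1.24, 1.28 and 1.14 on the mixed lineage, proB ALL and B/T BAL arrays, against 0.94 on the normal array. By Gapdh the B/T BAL array was thus the lowest of the leukemias. Marker genes differed widely among these unsorted samples. On the array labelled proB ALL, 9 of 9 measured NK and cytotoxic markers were at least 2-fold above normal marrow and 7 of 7 measured B-cell markers at least 2-fold below, so these data go against a B-lineage label. On the B/T BAL array 7 of 7 T-cell markers were higher and 7 of 7 B-cell markers lower. On all 3 leukemia arrays 6 of 6 red cell precursor markers were lower. In such bulk RNA, a different mixture of cells and a different amount of RNA per cell cannot be told apart.

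The 10 genes were highest on the proB ALL array and lowest on the B/T BAL array in most cases, and the route did not move as a block. Of the 10, 7 had their highest signal on the proB ALL array, where 18% of all 14012 genes tested had theirs. The highest signal of 2 more was on the mixed lineage array (34.7% of all genes), of 1 on the B/T BAL array (28.1%) and of 0 on the normal array (19.2%). Under quantile normalization those 2, H2-D1 and B2m, were higher in proB ALL than in mixed lineage leukemia. On the B/T BAL array 6 of the 10 had their lowest signal, and 23.1% of all genes. The lowest signal of 2 was on the mixed lineage array (27.9%), of 0 on the proB ALL array (29.9%) and of 2 on the normal array (19.1%). Against normal marrow, 5 of 10 were at least 2-fold higher and 0 lower on the proB ALL array, where 11.3% of all genes were higher and 18.7% lower. On the B/T BAL array 2 were higher and 3 lower, with 15.4% of all genes higher and 17.7% lower. On the mixed lineage array 0 were higher and 1 lower, with 18.8% and 15.2% of all genes. The median log2 difference of the 10 genes was -0.03 on the mixed lineage array, 1.01 on the proB ALL array and -0.31 on the B/T BAL array. Over all genes tested the medians were 0.08, -0.11 and 0.05. Over the alternatives the median of the 10 ran from -0.10 to 0.11 on the mixed lineage array, changing sign, from 0.87 to 1.17 on the proB ALL array and from -0.73 to -0.08 on the B/T BAL array. These 3 comparisons share the 1 normal array.

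**Figure D1:**
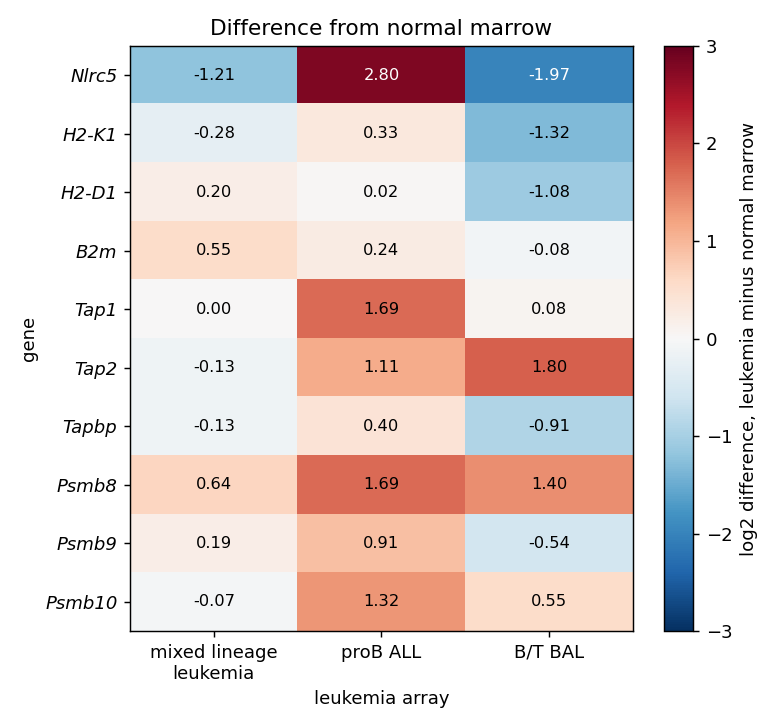
Log2 difference of each of the 10 genes (rows) between each leukemia array (columns) and the normal marrow array, with red for higher and blue for lower in leukemia. Nlrc5 had the widest span, 2.80 in proB ALL against -1.97 in B/T BAL, while Tap2 and Psmb8 were higher in B/T BAL where H2-K1 and H2-D1 were lower.

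Nlrc5, the transactivator, differed most between arrays. Its single probe set reached 557, 9742 and 307 on the mixed lineage, proB ALL and B/T BAL arrays, and 1352 in normal marrow. It was thus 7.21-fold higher in proB ALL, 2.43-fold lower in mixed lineage leukemia and 4.41-fold lower in B/T BAL than in normal marrow, and above the floor on each array. Between the leukemias with AF4-MLL alone it was 31.8-fold higher in proB ALL than in B/T BAL. By the brightest probe set of each gene, only Nlrc5 and Tap1 among the 10 had a highest array more than 2-fold above the next. Their ratios were 7.21 and 3.09. How many of all genes did so was not counted, so this is not read as particular to the 10. The share of all genes that were at least 2-fold higher than normal marrow in 1 leukemia and at least 2-fold lower in another was 7.21%, and Nlrc5 was the 1 of the 10 genes that did so.

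**Figure D2:**
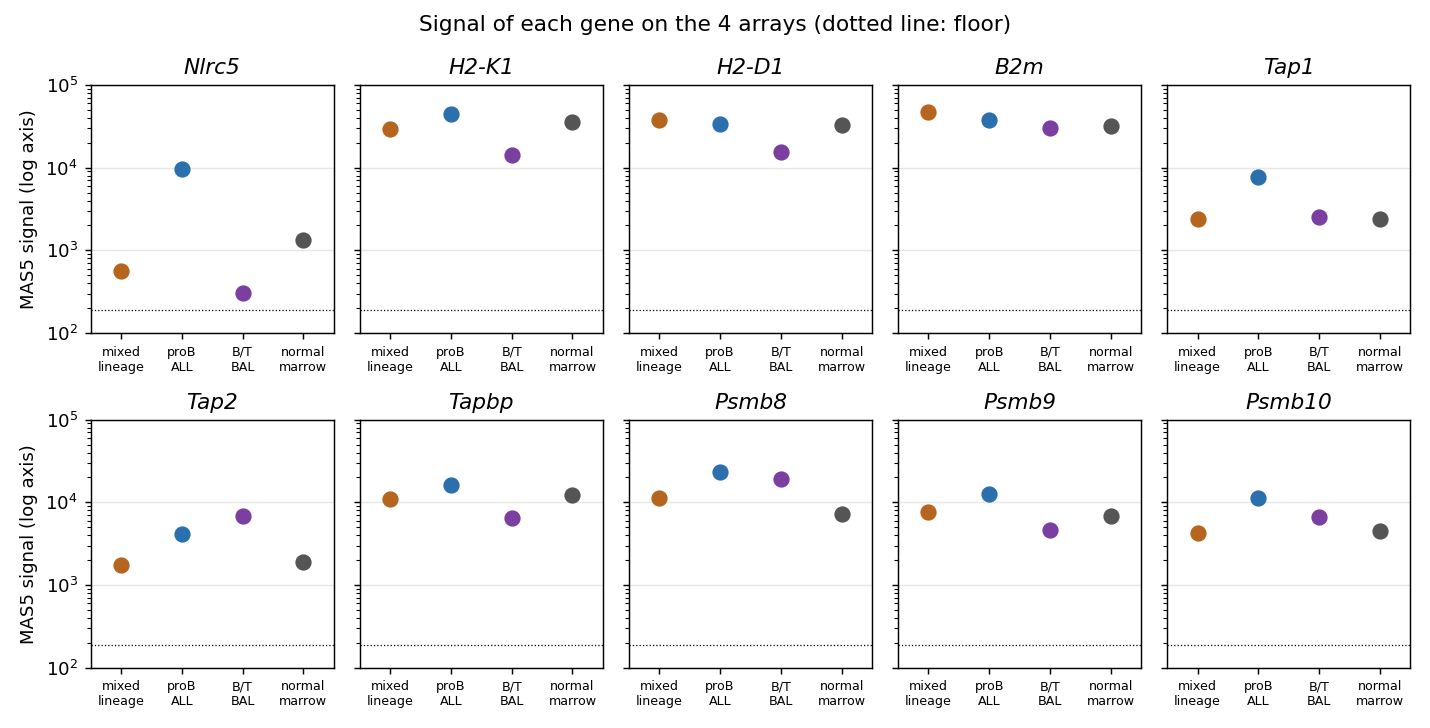
MAS5 signal (log axis) of the 10 genes, 1 panel a gene, with the 3 leukemia arrays left of the normal marrow array, with 1 point an array and no error bar because each group was 1 array. The dotted line is the floor of 189, and levels may be compared within a panel only. Nlrc5 and Tap1 stand out on the proB ALL array at 9742 and 7768.

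The classical heavy chains H2-K1 and H2-D1, which hold the peptide, were lower in B/T BAL than on any other array. H2-K1 reached 29283, 44581 and 14155 on the mixed lineage, proB ALL and B/T BAL arrays, against 35517 in normal marrow. H2-D1 had 37936, 33675 and 15653 in the leukemias in the same order, against 33129 in normal marrow. The B/T BAL array stood below the other 3, by 2.51-fold for H2-K1 and 2.12-fold for H2-D1 against normal marrow, whereas the other 2 leukemias were within 2-fold of it. The log2 difference of B/T BAL from normal marrow was -1.32 for H2-K1 and -1.08 for H2-D1.

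H2-K1 and H2-D1 are close relatives, and the probe sets for them mostly carry the suffix _x_at, which marks probes that may bind related transcripts as well. All 4 probe sets of H2-K1 and 7 of 9 of H2-D1 were of this kind, so these signals may mix the heavy chains. Of the 10 probe sets of both genes measured above the floor, 10 were higher in proB ALL than in B/T BAL, 9 of them at least 2-fold. The 4 brightest, with mean signals over 20000, gave log2 differences of 1.10 to 1.65 between proB ALL and B/T BAL, and the 6 dimmer ones 0.04 to 3.77. Against normal marrow, the brightest 4 differed by 0.02 to 0.33 in proB ALL and the 6 dimmer by 0.10 to 1.99. How far the heavy chains of proB ALL exceeded those of normal marrow therefore depended on the probe set. The 1 probe set of H2-D1 above the floor and free of the cross-hybridisation suffix had 2873, 8016 and 812 on the mixed lineage, proB ALL and B/T BAL arrays, against 3904 in normal marrow. By this probe set H2-D1 differed by 1.03 in proB ALL and by -2.20 in B/T BAL. Another probe set of H2-D1 exceeded the floor on the mixed lineage array alone, at 262 against 47.9 in normal marrow, and did not follow the others in B/T BAL, at 164.

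**Figure D3:**
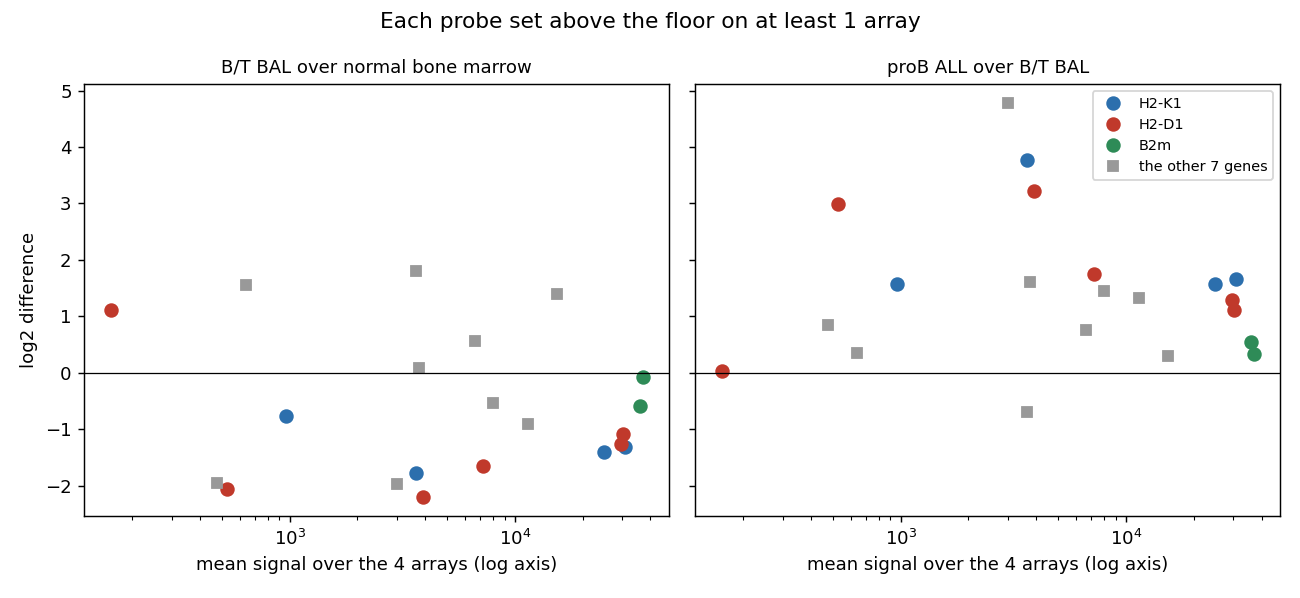
Log2 difference (vertical axis) of each of the 21 probe sets above the floor on at least 1 array against its mean signal over the 4 arrays (horizontal log axis), for B/T BAL over normal marrow on the left and proB ALL over B/T BAL on the right. Blue, red and green points are H2-K1, H2-D1 and B2m, and grey squares the other 7 genes. In the right panel 20 of 21 probe sets lie above 0, and the probe set of Tap2 lies below.

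B2m, the light chain shared by all class I molecules, differed least. It had 47375, 38023 and 30398 on the mixed lineage, proB ALL and B/T BAL arrays, against 32238 in normal marrow, and its highest and lowest arrays were 1.56-fold apart. By the brightest probe set of each gene, B2m was the 1 of the 10 with less than 2-fold between its highest and lowest array. That range was not counted over all genes. The other probe set of B2m had 48256, 35174 and 24112 in the leukemias in the same order, against 36554 in normal marrow. On it, mixed lineage leukemia and B/T BAL differed by 0.9994 on the log2 scale, which is at the 2-fold mark. By the deposited signals both probe sets were highest in mixed lineage leukemia and lowest in B/T BAL. Under quantile normalization the brighter one was highest in proB ALL, at 0.38 from normal marrow on the log2 scale, with 0.11 in mixed lineage leukemia.

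The promoters of H2-K1, H2-D1 and B2m are shown because Nlrc5 acts through letters that the 3 share, and because their signals can be set against that of Nlrc5. The windows run from 250 bases before to 50 bases after the annotated start, 5′ to 3′ on the gene's strand, and come from RefSeq on build GRCm38.p6. Capitals mark TGACG and ATTGG 20 bases apart (the X2 and Y boxes of the module) and the interferon-type letters GAANNGAAA, each searched on both strands.
H2-K1 promoter, chr17:34000298-34000597, minus strand: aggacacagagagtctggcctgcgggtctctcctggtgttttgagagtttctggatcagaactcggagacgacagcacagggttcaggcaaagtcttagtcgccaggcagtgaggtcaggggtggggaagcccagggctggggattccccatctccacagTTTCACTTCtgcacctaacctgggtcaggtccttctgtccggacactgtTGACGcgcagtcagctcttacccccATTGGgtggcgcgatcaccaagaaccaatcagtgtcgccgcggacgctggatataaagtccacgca
H2-D1 promoter, chr17:35262844-35263143, plus strand: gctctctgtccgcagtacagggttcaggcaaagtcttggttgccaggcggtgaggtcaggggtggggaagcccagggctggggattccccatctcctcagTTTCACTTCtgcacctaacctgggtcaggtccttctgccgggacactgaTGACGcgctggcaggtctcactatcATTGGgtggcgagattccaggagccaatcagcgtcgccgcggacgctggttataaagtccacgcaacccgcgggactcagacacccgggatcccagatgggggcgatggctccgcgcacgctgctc
B2m promoter, chr2:122147437-122147736, plus strand: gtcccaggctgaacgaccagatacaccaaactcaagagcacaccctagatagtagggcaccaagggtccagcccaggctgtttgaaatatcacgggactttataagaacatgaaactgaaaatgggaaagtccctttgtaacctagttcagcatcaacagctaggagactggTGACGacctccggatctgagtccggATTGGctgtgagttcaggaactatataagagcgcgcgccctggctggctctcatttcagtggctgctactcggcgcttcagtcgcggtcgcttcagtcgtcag

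The pair TGACG and ATTGG at this spacing stood 41 bases before the start in H2-K1, 101 in H2-D1 and 78 in B2m, counted to the first base of TGACG. H2-K1 had 2 annotated windows and the first listed was used, so its distance holds for that start only. The spacing and the letters were chosen after these windows were read. Of 32817 promoter windows of this length, 31 held the pair, or 0.0945%, and among genes of the route listed here H2-M3 was another. The letters GAANNGAAA, on the opposite strand, were in H2-K1 and H2-D1 and in 7.52% of all windows. Only this spacing was searched, so gaaactgaaa in the window of B2m, which has a wider gap, was not matched. A window was at hand for 8 of the 10 genes. In the windows of Tap1, Tapbp, Psmb8, Psmb9 and Psmb10 neither the pair nor GAANNGAAA was matched. Between proB ALL and B/T BAL, H2-K1, H2-D1 and B2m differed by 1.65, 1.10 and 0.32 on the log2 scale and Nlrc5 by 4.77. The values of the 3 depended on the processing and the probe set. B2m was at 0.95 under quantile normalization, H2-D1 at 3.22 by its probe set free of the cross-hybridisation suffix, and the probe sets of H2-K1 ran from 1.57 to 3.77.

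Tap1 and Tap2, the chains of the peptide transporter, parted in B/T BAL. Tap1 had 2376, 7768 and 2513 on the mixed lineage, proB ALL and B/T BAL arrays, against 2369 in normal marrow. It was 3.28-fold higher in proB ALL than in normal marrow, while the log2 difference from normal marrow was 0.08 in B/T BAL and 0.00 on the mixed lineage array. Tap2 had 1732, 4152 and 6751 on the mixed lineage, proB ALL and B/T BAL arrays, against 1900 in normal marrow. It was 2.19-fold higher in proB ALL and 3.55-fold higher in B/T BAL, which makes it the 1 gene of the 10 with its highest signal in B/T BAL. The other 3 probe sets of Tap1 were below the floor on every array. With the mean over all its probe sets, those 3 included, the log2 difference of Tap1 in proB ALL was 0.44 in place of 1.69, under the 2-fold mark. Tap2 rested on 1 probe set.

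Tapbp, the loading chaperone tapasin, followed the heavy chains in B/T BAL. Its brighter probe set had 11119, 16143 and 6449.9 on the mixed lineage, proB ALL and B/T BAL arrays, against 12193 in normal marrow. Its log2 difference from normal marrow, 0.40 in proB ALL but -0.91 in B/T BAL, stayed under 2-fold both times. The dimmer probe set had 365, 404 and 203 in the leukemias in the same order, against 939 in normal marrow. The probe sets disagreed on proB ALL, where the dimmer one lay 1.12 below normal marrow on the log2 scale (a difference of -1.12), and both were lowest in B/T BAL.

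Of the 3 immunoproteasome subunits, Psmb8 and Psmb10 were at least 2-fold higher in proB ALL than in normal marrow and Psmb9 was not, and they differed from one another in B/T BAL. Psmb8 (beta5i) had 11332, 23598 and 19267 on the mixed lineage, proB ALL and B/T BAL arrays, against 7259 in normal marrow, which was the lowest array. Psmb9 (beta1i) had 7748, 12784 and 4648 in the leukemias in the same order, against 6781 in normal marrow. Psmb10 (beta2i) had 4295, 11308 and 6635, against 4499.9 in normal marrow. In proB ALL the 3 subunits were 3.25-fold, 1.89-fold and 2.51-fold above normal marrow. In B/T BAL Psmb8 was 2.65-fold higher and Psmb10 1.47-fold higher, whereas Psmb9 was 1.46-fold lower. The dimmer probe set of Psmb8 had 670, 949 and 732 in the leukemias in the same order and 215 in normal marrow, the same order of arrays as the brighter one. The constitutive subunits that these 3 replace, Psmb5, Psmb6 and Psmb7, were within 2-fold of normal marrow on each leukemia array. Psmb6, the counterpart of Psmb9, had the widest difference of them, 0.95 in B/T BAL, where it had 14618 against 7522 in normal marrow. Psmb5 and Psmb7 are named here as counterparts of the subunits and not for their values.

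Several of the genes are neighbours. In the RefSeq gene table Psmb9, Tap1, Psmb8 and Tap2 lie next to one another on chromosome 17, and Tapbp, H2-K1 and H2-D1 lie on the same chromosome. B2m lies on chromosome 2 and Nlrc5 and Psmb10 on chromosome 8. The RefSeq windows of Tap1 and Psmb9 overlap by 275 bases on opposite strands. These 2 differed between proB ALL and B/T BAL by 1.61 and 1.45 on the log2 scale, and their neighbours Psmb8 and Tap2 by 0.29 and -0.69. With the mean over probe sets Tap1 was at 0.33 in this contrast. Against normal marrow, Tap1 and Psmb9 were at 1.69 and 0.91 in proB ALL and at 0.08 and -0.54 in B/T BAL. Whether the overlap bears on their levels was not tested.

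Over the 3 leukemias together no gene of the 10 passed a test against normal marrow. With limma across all 14012 genes, 0 of 10 had an adjusted p under 0.05, 0 of 10 an unadjusted p under 0.05, and over all genes 0% and 2.95% did. The largest difference was that of Psmb8, 1.24 ± 0.64 (SE) on the log2 scale with an unadjusted p of 0.0889 and a limma adjusted p of 0.9999, higher in 3 of 3 leukemias. Tap2 followed with 0.93 ± 0.86 (SE), higher in 2 of 3. Nlrc5 had -0.12 ± 1.67 (SE), which averages differences of opposite sign. Without proB ALL the difference of Nlrc5 was -1.59, without B/T BAL it was 0.80, and without mixed lineage leukemia 0.42. The fit took its spread from the 3 leukemias, with 2 residual degrees of freedom, and assumed that the lone normal array varies like them. Its p-values set the difference from that array against the spread between leukemias of unlike immunophenotype, which is not a spread between replicates. For 8 of the 10 genes normal marrow lay inside the range of the 3 leukemias, as it did for 61.7% of all genes. Psmb8 and Tap1 were the exceptions, with normal marrow as the lowest array.

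The widest contrast lay between the leukemias with AF4-MLL alone. In proB ALL against B/T BAL, 6 of 10 genes were at least 2-fold higher (Nlrc5, H2-K1, H2-D1, Tap1, Tapbp and Psmb9) and 0 lower, where 10.5% of all genes were higher and 15.9% lower. The median log2 difference was 1.21 over the 10 genes and -0.17 over all genes tested. Tap2 was the 1 gene in the other direction, with -0.69. With the mean over probe sets Tap1 was at 0.33 in place of 1.61, which took it below 2-fold, and over the alternatives, which for this contrast were added after seeing the data, the count ran from 5 to 6 genes. In mixed lineage leukemia against proB ALL, 0 were higher and 5 lower (Nlrc5, Tap1, Tap2, Psmb8 and Psmb10), where 27.3% and 15.7% of all genes were. In mixed lineage leukemia against B/T BAL, H2-K1 and H2-D1 were higher and Tap2 lower, where 26.3% of all genes were higher and 21.2% lower. There is 1 array a group here, so none of these differences has a test.

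**Figure D4:**
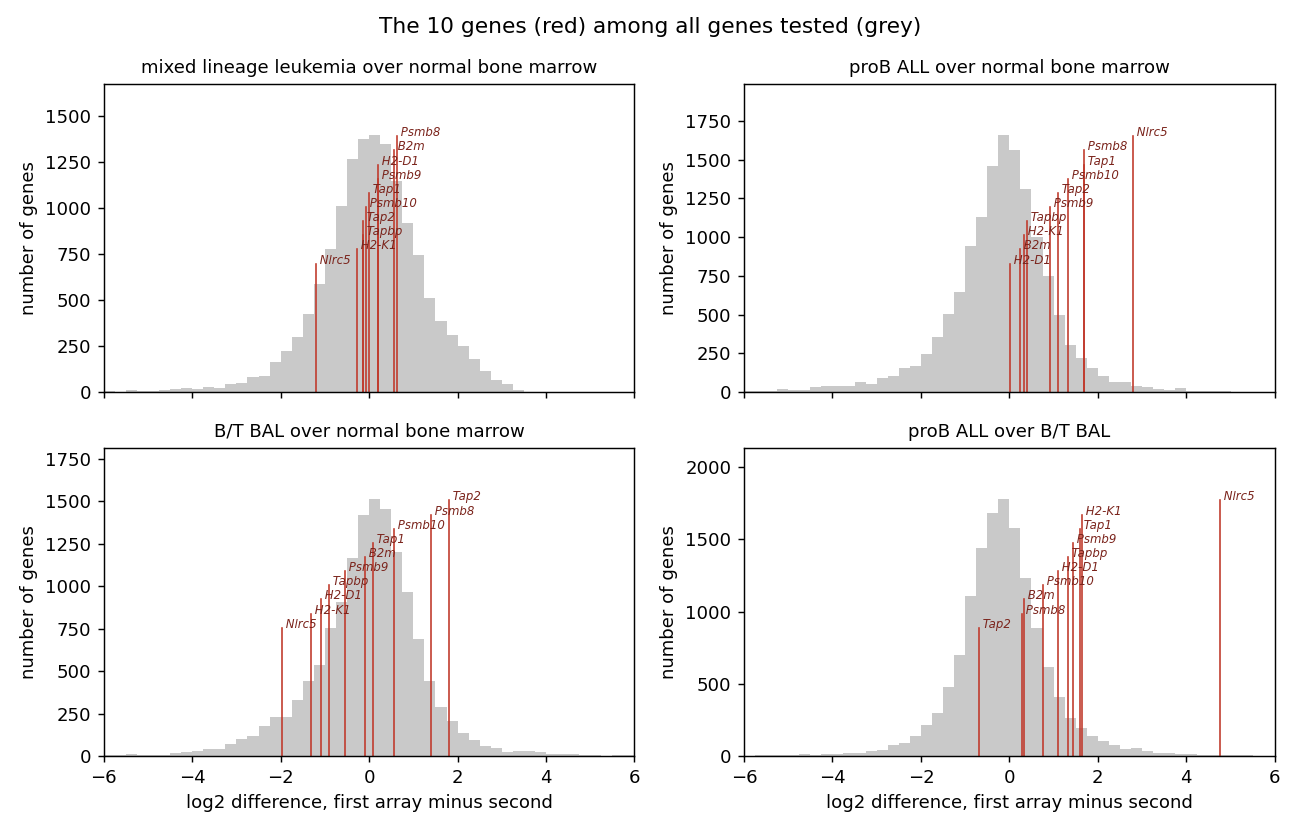
Log2 difference between arrays (horizontal axis) for all 14012 genes tested, as grey bars with the number of genes in bins on the vertical axis, and for the 10 genes as red lines whose height only separates the labels. The panels show each leukemia against normal marrow and proB ALL against B/T BAL. In the last panel 9 of the 10 lines lie right of 0, with Nlrc5 farthest at 4.77.

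Markers of several other cell types differed between the arrays in these contrasts. The summed signal of the 9 measured NK and cytotoxic markers was 11211, 184857 and 53562 on the mixed lineage, proB ALL and B/T BAL arrays, against 13217 in normal marrow. Gzma alone gave 52157 of the sum in B/T BAL. The 7 T-cell markers summed to 2005, 45234 and 153394 in the leukemias in the same order, against 3472 in normal marrow. The 8 B-cell markers with a probe set summed to 8294, 4372 and 1557, against 34578 in normal marrow. On the proB ALL array 3 of the 7 were at least 2-fold above normal marrow, Cd3d at 12582 against 1002, Cd3g at 3290.5 against 632 and Thy1 at 28959 against 995. The other 4, Cd3e, Cd8a, Cd4 and Ptcra, were below the floor there, at 32.3, 135, 122 and 114. The 8 endothelial and stromal markers summed to 8582, 3465 and 74214 in the leukemias, against 9446 in normal marrow. Col1a2 and Pdgfrb gave 38649 and 30356 of the sum in B/T BAL, where Cdh5 and Kdr were at least 2-fold below normal marrow. Myeloid markers differed as well. The 9 neutrophil markers summed to 631957, 120715 and 378694 on the mixed lineage, proB ALL and B/T BAL arrays, against 396428 in normal marrow, with 7 of 9 at least 2-fold lower in proB ALL and 4 of 9 in B/T BAL. The 8 monocyte and macrophage markers summed to 82268, 29518 and 16459, against 58848 in normal marrow, with 6 of 8 lower in proB ALL and 8 of 8 in B/T BAL. The part of these cells in the class I values was not tested.

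Other genes of the route were counted from lists, of which 53 of 65 genes were measured. Against normal marrow 1 was at least 2-fold higher and 5 lower on the mixed lineage array, where 18.8% of all genes were higher and 15.2% lower. On the proB ALL array 8 were higher and 6 lower, with 11.3% and 18.7% of all genes. On the B/T BAL array 6 were higher and 7 lower, with 15.4% and 17.7% of all genes. The same shares apply to the counts of single lists below. The medians of the 53 genes were -0.14, 0.16 and 0.17 on the 3 leukemia arrays in the same order, and 0 of the 53 passed limma. Peptide loading and trimming genes came closest to the 10 genes in proB ALL. Of 6 measured, Tapbpl (a tapasin relative), Erap1 (the peptidase that trims peptides for class I) and Ide (a peptidase) were at least 2-fold higher on both the proB ALL and B/T BAL arrays. Erap1 had 1376, 5139.8 and 3061 on the mixed lineage, proB ALL and B/T BAL arrays, against 1181 in normal marrow. Tapbpl had 1198, 3475 and 2474, against 829.95 in normal marrow. Both had their highest signal in proB ALL, and both were higher in B/T BAL than in normal marrow, as Tap2 and Psmb8 were and the heavy chains were not.

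The alpha ring of the proteasome differed little between arrays. Of 7 alpha ring subunits 0 were 2-fold different on any leukemia array, with medians of 0.46, 0.24 and 0.43 on the mixed lineage, proB ALL and B/T BAL arrays. Psme3, a proteasome activator subunit that is not part of the interferon-induced activator, was lower on all 3, with 1019, 1887 and 2690.0 on the mixed lineage, proB ALL and B/T BAL arrays, against 6699 in normal marrow.

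Among non-classical and class I-like heavy chains the direction differed from gene to gene. Of 9 measured, 1 was higher and 2 lower on the mixed lineage array. On the proB ALL array 1 was higher and 3 lower, and on the B/T BAL array 3 were higher (H2-Q2, H2-Bl and Cd1d1) and 3 lower (H2-Q10, H2-T24 and Fcgrt). H2-Q2 had 6361 in B/T BAL and was below the floor on the other leukemia arrays and in normal marrow, at 29.6 on the mixed lineage array, 44.6 in proB ALL and 41.2 in normal marrow. A probe set that names H2-Q2 together with Gm38417 and H2-D1 did not follow it. That probe set had 22.2 in B/T BAL, below the floor, against 64.5 in normal marrow. H2-Q10, a heavy chain that the mouse liver secretes, had 1414, 142 and 1074 on the mixed lineage, proB ALL and B/T BAL arrays, against 3322 in normal marrow. H2-M3, which presents formylated peptides and whose promoter window held the TGACG and ATTGG pair, had 2277, 5640.0 and 1651, against 1874 in normal marrow. It was named for that window and not by its rank.

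Regulators of class I genes other than Nlrc5 were mostly within 2-fold of normal marrow. Of 14 measured, 0 were at least 2-fold higher on any leukemia array, while 1 was lower in mixed lineage leukemia (Rfxank), 1 in proB ALL (Nfya) and 2 in B/T BAL (Irf8 and Irf9). Irf8, a factor of myeloid and B cells, had 6631, 5789 and 1789 on the mixed lineage, proB ALL and B/T BAL arrays, against 8222 in normal marrow. Rfxank, a subunit of the complex that binds the X box beside Nlrc5, had 202, 298 and 874 on the mixed lineage, proB ALL and B/T BAL arrays, against 617 in normal marrow. It was thus highest in B/T BAL, where Nlrc5 and both heavy chains were lowest.

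Some genes of the interferon route differed in proB ALL. Of 10 interferon ligands, receptors and kinases, 4 were at least 2-fold higher (Ifng, Ifngr1, Jak1 and Socs1) and 1 lower (Ifngr2). Ifng, the cytokine that induces class I genes, had 575 in proB ALL and was below the floor on the other leukemia arrays and in normal marrow. Ifngr1, a chain of its receptor, had 6097, 15222 and 4083 on the mixed lineage, proB ALL and B/T BAL arrays, against 3632 in normal marrow. In B/T BAL 0 of the 10 were higher and 1 was lower (Ifnar2).

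**Figure D5:**
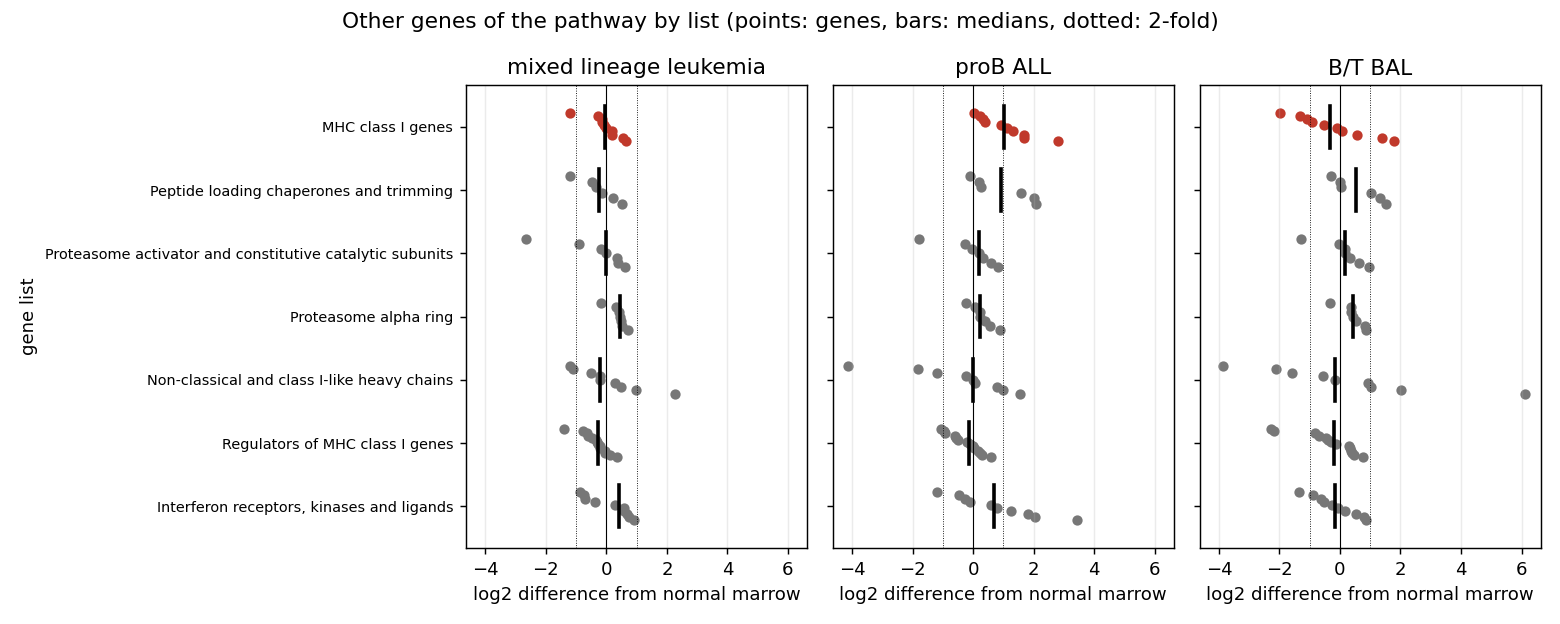
Log2 difference from normal marrow (horizontal axis) for the 10 genes in red and for each measured gene of the other lists in grey, by list (vertical axis), with 1 panel a leukemia. Black bars are medians and dotted lines mark 2-fold. In proB ALL the median of the 10 genes is 1.01 and that of peptide loading and trimming genes 0.92, and in B/T BAL they are -0.31 and 0.53.

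The genes nearest to the median pattern of the 10 were found by the root mean square distance over the 3 log2 differences from normal marrow. They were Ap3m2, B4galt7, Ralgapa2, Sh3bgr and Dennd4c, at distances of 0.06 to 0.10. Among the 10, Psmb9 lay nearest to that median at 0.19 and Nlrc5 farthest at 1.57. Ap3m2, the nearest, had 554, 1216 and 491 on the mixed lineage, proB ALL and B/T BAL arrays, against 596 in normal marrow. Near Nlrc5 itself, in a search added after its values were seen, lay Armcx4, Prelid2, Klra8, Ccnd2 and Otof at 0.39 to 0.47. Klra8, a receptor of NK cells, had 42.3, 2502 and 58.6 on the mixed lineage, proB ALL and B/T BAL arrays, against 249.6 in normal marrow.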

How the data were processed

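Total RNA of 4 mouse samples was hybridised to 1 array each. The deposited values were intensity values, 1 linear signal per probe set, from MAS5 according to the submitters' processing notes. The sources used here do not give the MAS5 version or settings, and detection calls were not used. Every array had a trimmed mean of 1000 once 2% of its probe sets were cut at either end. Of 45101 probe sets, 64 controls were left out, 34945 carried 1 gene symbol in the platform annotation, 932 several and 9160 none, and the last 2 kinds entered no comparison. Where a gene had several probe sets, the one brightest on average (log2 scale) stood for it, and 14012 of 18193 genes exceeded the floor on at least 1 array.

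Leukemia was compared with normal marrow by limma 3.58.1 in R 4.3.3 (lmFit, eBayes with an intensity trend), 3 arrays against 1, with Benjamini-Hochberg adjustment over all genes at 0.05. The fit was also run on simulated data, in which every gene had a smaller spread than any of the 10 genes here. The residual SD of the 10 genes ran from 0.32 (B2m) to 2.56 (Nlrc5) on the log2 scale. That run therefore does not show what the fit can detect in these data. Folds are ratios of signals, and no side of a printed fold was below the floor. The number of arrays limits the precision. The 10 genes, the lists and the alternatives were chosen with earlier results of these data known. Besides the 10 genes, the text names from each list at most 3 genes, those farthest from normal marrow, and the 5 nearest in pattern. Further genes are named as counterparts, as markers, or where a count of 5 or fewer is listed, and were chosen after their values were seen. Alternatives were the pseudocount, the normalization, the filter, the probe set rule, the variance moderation and leaving out each leukemia.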

Additional observations from a re-analysis of the deposited data

Results flagged for a closer look

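Nlrc5 moved in opposite directions from normal marrow in the leukemias with AF4-MLL alone. It was higher by 2.80 on the log2 scale in proB ALL and differed by -1.97 in B/T BAL, a gap of 4.77, and with 1 array each the gap was not tested.

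Of the 3 probe sets that name a gene of the route together with other genes, and that entered no comparison, 2 were above normal marrow on a leukemia array. The one for H2-K1 and H2-D1 together had 2705, 7390.5 and 668 on the mixed lineage, proB ALL and B/T BAL arrays, against 2848 in normal marrow, a log2 difference of 1.36 in proB ALL. The one for Gm38417, H2-Q2 and H2-D1 had 224 in mixed lineage leukemia, against 64.5 in normal marrow, a log2 difference of 1.25. In proB ALL and B/T BAL it had 50.4 and 22.2, both below the floor.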

How the results depend on the processing

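Over all alternatives 0 of the 10 genes passed limma, with adjusted p between 0.486 and 0.99998, though over all genes 23 passed with robust eBayes, 15 with the larger pseudocount, 71 without proB ALL and 113 without B/T BAL, against 0. With the mean over probe sets, 1 gene (Psmb8) was at least 2-fold higher in mixed lineage leukemia, and H2-D1 in B/T BAL was at -0.89. Mixed lineage leukemia against B/T BAL had 1 gene higher under quantile normalization, without _x_at and _s_at probe sets (added after seeing the data), and also without _a_at ones. That last setting left 6 of the 10 genes, with 0 lower in that contrast, 0 higher in B/T BAL against normal marrow, and a median of -1.42 for mixed lineage leukemia against proB ALL.

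Leaving out 1 leukemia at a time gave 0 to 0 passing genes, and differences from -1.59 to 0.80 for Nlrc5, -0.80 to 0.025 for H2-K1, -0.53 to 0.11 for H2-D1, -0.52 to 0.14 for Tapbp and -0.17 to 0.55 for Psmb9. Nlrc5 was at 0.0016 with the larger pseudocount and B2m at -0.022 under quantile normalization. Scaling to the 75th percentile moved the median of all genes by 0.15 in mixed lineage leukemia, where Tap2, Tapbp and Psmb10 then lay above normal marrow, and H2-D1 lay below it in proB ALL. The cause of these changes was not tested. No paired analysis was possible because each group held 1 array. Of the 27 probe sets, 21 exceeded the floor on any array, and 20 the 75th percentile of all signals.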
